A study of Mus musculus with 5 samples.

Results

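The mitochondrial genome is a small circular chromosome that encodes 13 subunits of the respiratory chain and ATP synthase, the 2 RNAs of the mitochondrial ribosome and 22 transfer RNAs. The deposited tables hold all of these as rows whose symbol starts with mt-, and those 37 rows among 33894 gene rows are described here, with mRNA, rRNA and tRNA rows kept apart. Both strands are transcribed by a dedicated nuclear-encoded polymerase into long precursors, which are cut at the tRNAs that lie between the other genes. Most of the mRNAs then receive short poly(A) tails. Levels of single mitochondrial mRNAs therefore depend on processing and turnover as well as on transcription, and every respiratory complex with mitochondrial subunits also needs subunits made from nuclear genes. Haematopoietic stem cells are known for low reliance on respiration at rest.

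The study profiled bone marrow cells of mice aged 8 weeks, sorted by the surface phenotype of haematopoietic stem cells (CD34- Flt3- Lin- Sca1+ c-Kit-high). The design compared WT mice (2 samples) with Lrp5/6 dKO mice (3 samples). These carry Vav-cre, active across blood cells, with both Lrp6 fl/fl and Lrp5 fl/fl, so that Cre removes floxed parts of both genes, which encode co-receptors for Wnt ligands. Only the dKO genotype is labelled with Cre, so an effect of Cre and one of the missing receptors cannot be told apart. RNA from 6K sorted cells per sample was made into Smart-seq2 libraries, a full-length method that primes on poly(A) and in its standard form does not mark strand. The labels do not say whether samples came from separate mice, so a p-value covers no more than the spread among these 5, which may be technical.

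Library totals ran from 16028512 counts (dKO library 2) to 28027458 (WT library 2). Lrp6 was counted 660 and 232 times in WT and 790, 260 and 767 times in the libraries labelled dKO, and Lrp5 7, 32, 37, 2 and 71 times in the same order. Neither had a lower mean in the libraries labelled dKO, although Lrp5 was lowest in dKO library 2, and counts summed over all exons say nothing of a few deleted ones, so every direction given below rests on the labels alone. dKO library 2 correlated with the other libraries at 0.826 to 0.851 on log2 CPM (counts per 1000000 of the TMM-scaled library total), and all other pairs at 0.883 or above. Of the 12 stem cell marker genes listed all were detected, with a summed level of 1528 and 1055 CPM in WT and 2197, 2233 and 2158 CPM in dKO. Granulocyte progenitor markers summed to 6689 CPM in WT library 1 and 43259 CPM in WT library 2, against 11401 to 15997 CPM in the dKO libraries.

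Of the 37 genes, 28 are annotated on one strand of the mitochondrial genome and 9 on the other, namely mt-Nd6 and 8 tRNAs. Overlap was examined only in 2 pairs of mRNAs in the same direction. In all 4 of these genes counts and TPM (the authors' length-scaled values) gave different levels, as described later. The last bases of mt-Atp8 and the first bases of mt-Atp6, like the last of mt-Nd4l and the first of mt-Nd4, are shown 5′ to 3′ from the GENCODE M21 transcripts, matched by gene identifier; capitals mark the bases that both reading frames share, 43 in the first pair and 7 in the second.
mt-Atp8: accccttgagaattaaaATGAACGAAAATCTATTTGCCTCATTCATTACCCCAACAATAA
mt-Atp6: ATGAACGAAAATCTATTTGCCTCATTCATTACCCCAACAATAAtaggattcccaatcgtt
mt-Nd4l: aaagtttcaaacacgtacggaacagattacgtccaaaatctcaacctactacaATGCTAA
mt-Nd4: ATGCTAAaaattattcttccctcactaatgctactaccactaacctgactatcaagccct
A read that lies within the capitals belongs equally to both genes of a pair, and the sources used here do not say how the counting treated such reads.

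Mitochondrial mRNAs together took 2.08% and 1.71% of library counts in WT and 1.85%, 1.38% and 2.39% in dKO. The dKO mean of 1.87% ± 0.503 (SD, n = 3) lay at 0.988 times the WT mean of 1.89% ± 0.258 (SD, n = 2). The lowest and the highest share both came from dKO libraries, so the groups overlapped. In bulk samples fewer cells of a type and less RNA per cell cannot be told apart. Both rRNAs, mt-Rnr1 and mt-Rnr2 of the small and large ribosomal subunit, together took 0.0627% and 0.0531% in WT and 0.0660%, 0.0350% and 0.0836% in dKO, again with the 2 extremes in dKO libraries. Counted against the mRNAs of the same library, there were 3.02 and 3.10 rRNA counts per 100 mRNA counts in WT and 3.57, 2.53 and 3.50 in dKO. The libraries were primed on poly(A), so these ratios are of captured RNA and do not give rRNA against mRNA in the cells. dKO library 2, the shallowest, was lowest on all 3 measures, and without it the dKO to WT ratio of the mRNA share was 1.12 and that of the rRNA share 1.29. Without dKO library 3 these ratios were 0.852 and 0.872, without WT library 2 they were 0.902 and 0.981, and without WT library 1 they were 1.09 and 1.16. On the TPM scale mRNAs made up 3.55%, 2.86%, 3.22%, 2.53% and 4.13% of the total in the order WT 1, WT 2, dKO 1, dKO 2 and dKO 3, with the same order of libraries.

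**Figure D1:**
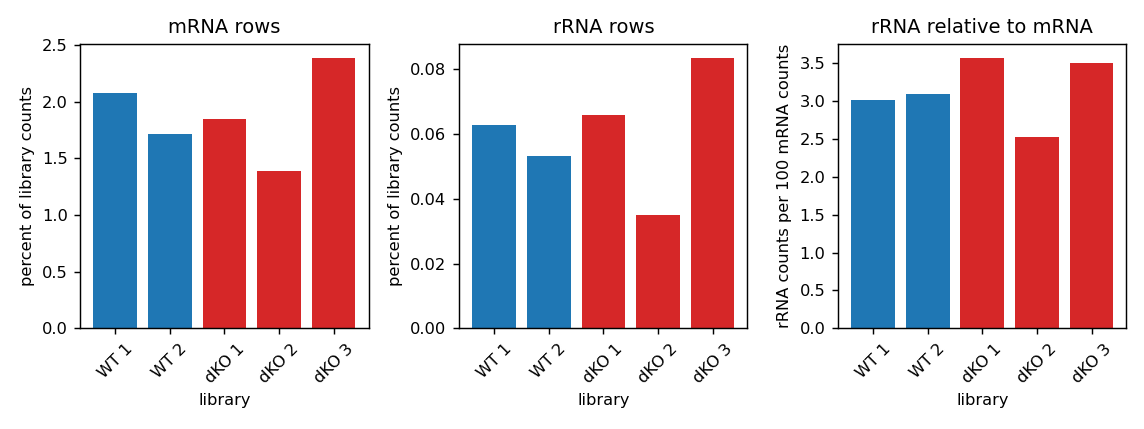
Share of library counts held by mitochondrial mRNAs (left) and rRNAs (middle), in percent, and rRNA counts per 100 mRNA counts (right), 1 bar per library. In every panel the 2 WT bars lie between the lowest and the highest dKO bar.

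Levels per length set one mRNA apart. mt-Cytb, the mitochondrial subunit of complex III, reached a mean of 6969 ± 1785 CPM per kilobase (SD, n = 5 libraries), 2.26 times mt-Co3, the next, and its range did not overlap that of mt-Co3. By TPM mt-Cytb held rank 1, 3, 1, 2 and 2 among all rows of WT 1, WT 2, dKO 1, dKO 2 and dKO 3. The complex IV genes followed in one order in all 5 libraries, mt-Co3 at 3083 ± 593, mt-Co1 at 2398 ± 566 and mt-Co2 at 1830 ± 397 CPM per kilobase, although their ranges over libraries overlapped. Next came mt-Nd1 at 1547 ± 339 CPM per kilobase, which encodes a membrane subunit of complex I. mt-Atp8 stood at 1204 ± 437 and mt-Nd4 at 680 ± 148 CPM per kilobase. Ranges then separated mt-Nd4 from mt-Nd2 at 281 ± 58.5, with mt-Rnr2 at 291 ± 78.8 CPM per kilobase beside mt-Nd2. With priming on poly(A), the levels of all rows, mt-Nd6 included, and the places of rRNA rows among the mRNAs are those of captured RNA only. Neighbours further down were not separated by their spread, with mt-Nd5 at 176 ± 33.3, mt-Nd6 at 175 ± 45.3, mt-Atp6 at 156 ± 181, mt-Rnr1 at 148 ± 53.2 and mt-Nd3 at 108 ± 32.1 CPM per kilobase. mt-Nd4l came last at 2.32 ± 1.19 CPM per kilobase, 46.7 times below mt-Nd3 and apart from it in range. The places of mt-Atp8, mt-Nd4, mt-Atp6 and mt-Nd4l rest on counts, and TPM gave other levels. By TPM mt-Nd4 held ranks 9096 to 10960 and mt-Atp6 ranks 11039 to 12527. A nuclear row of matching sequence, Gm10925, also held far more counts than mt-Atp6, as given below. Spearman correlations of the 13 mRNA counts between libraries ran from 0.901 to 1, a description over 13 genes that share their library and their lengths. The 4 lowest were those of WT library 1 with each of the others.

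**Figure D2:**
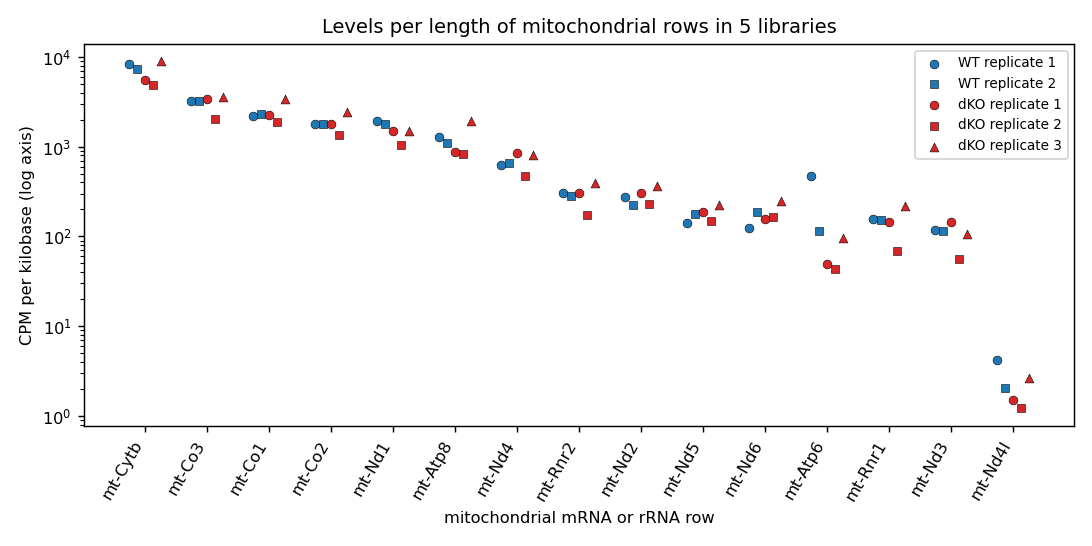
CPM per kilobase of annotated length (log axis) of the 13 mRNA and 2 rRNA rows, 1 point per library, sorted by mean. mt-Cytb stands on top in all 5 libraries, and mt-Nd4l lies far under the rest.

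Between the groups no mitochondrial row passed the test. The quasi-likelihood test of edgeR, adjusted over 13696 genes by Benjamini-Hochberg, called 0 of 16 tested rows at an adjusted p under 0.05, and 0% of all genes in either direction. At an unadjusted p under 0.05, 1 of the 13 mRNAs was lower (mt-Atp6), where 5.19% of all genes were, and 0 were higher, where 4.94% of all genes were. DESeq2 called mt-Atp6 lower and no other mitochondrial row, where it called 0.729% of genes lower and 1.28% higher. Fitted log2 fold changes (dKO minus WT) were positive for 7 mRNAs and negative for 6, with a median of 0.01, beside 0.04 over all genes. That median rested on single libraries, at 0.22 without dKO library 2, -0.21 without dKO library 3 and -0.10 without WT library 2, and it was 0.19 on log2(TPM + 1). CPM of the groups did not overlap for 2 of the 13 mRNAs, mt-Nd1 and mt-Atp6, both lower in dKO, where 15.6% of all genes were lower without overlap, and for 0 in the other direction, where 13.7% of all genes were higher. In TPM both of these genes overlapped between the groups. There mt-Nd4, mt-Nd5 and mt-Nd6 were higher in each dKO library, where 15.1% of all rows with a TPM above 0 were. mt-Nd4l was lower in each, where 7.85% of those rows were. TPM of mt-Nd4 and mt-Nd4l did not follow from their counts, as described later.

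**Figure D3:**
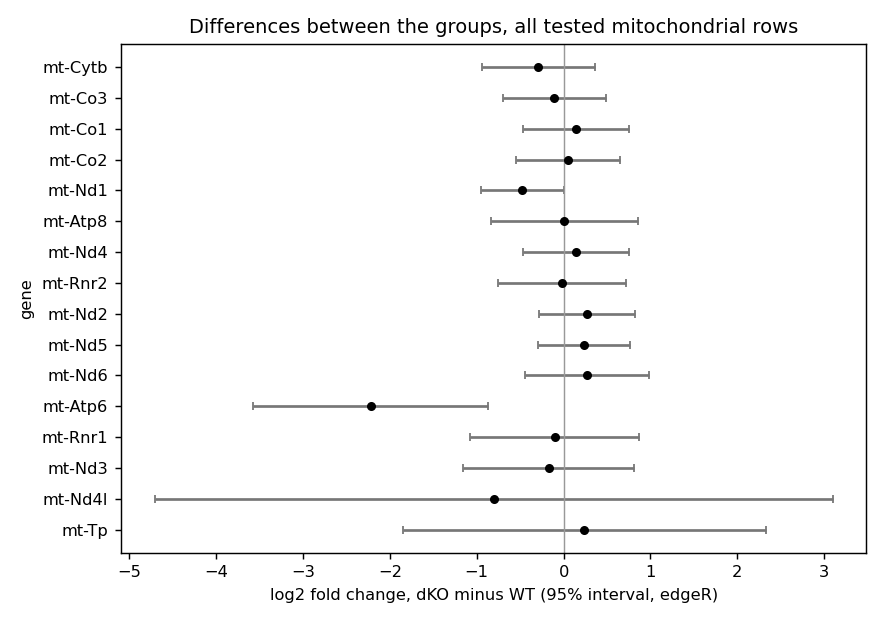
Fitted log2 fold change, dKO minus WT, of each tested mitochondrial row with its 95% interval from edgeR. Intervals of all rows but mt-Atp6 span 0, and mt-Nd4l and mt-Tp have the widest.

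Complex I, which takes electrons from NADH, has 7 mitochondrial subunits. mt-Nd1 measured 1842 and 1717 CPM in WT and 1416, 1005 and 1420.3 CPM in dKO, a mean of 1779 ± 88.4 (SD, n = 2) against 1281 ± 238 (SD, n = 3). All 3 dKO libraries lay under both WT libraries. The fitted log2 fold change was -0.47 (95% interval -0.95 to 0.0041), with an edgeR adjusted p of 0.501. mt-Nd2 measured 286 and 233 CPM in WT and 315, 241 and 382 CPM in dKO, with overlap (log2 fold change 0.27, edgeR adjusted p 0.779). mt-Nd4 measured 863 and 903 CPM in WT against 1162, 651 and 1106 CPM in dKO, with WT inside the dKO range (0.14, edgeR adjusted p 0.926). mt-Nd5, the largest of these subunits, measured 257 and 325 CPM in WT and 343, 274 and 410.2 CPM in dKO (0.24, edgeR adjusted p 0.809). Here too the groups overlapped, since dKO library 2 fell between the WT libraries. mt-Nd3 measured 41.1 and 39.7 CPM in WT and 50.3, 19.7 and 37.5 CPM in dKO (-0.17, edgeR adjusted p 0.949). mt-Nd4l was counted only 33 and 15 times in WT and 12, 6 and 21 times in dKO, too few for a close estimate (-0.80, 95% interval -4.71 to 3.10, edgeR adjusted p 0.938). mt-Nd6 is the one mRNA on the other strand, and without strand its reads cannot be told apart from antisense RNA of the strand that carries the other mRNAs. Its level was 64.4 and 97.7 CPM in WT and 81.0, 84.8 and 127 CPM in dKO (0.27, edgeR adjusted p 0.853).

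Complex III has mt-Cytb as its only mitochondrial subunit. It measured 9610.1 and 8297 CPM in WT and 6235, 5530.5 and 10190.5 CPM in dKO, with dKO library 3 above both WT libraries and the other dKO libraries under them. The fitted difference was -0.29 (95% interval -0.94 to 0.36, edgeR adjusted p 0.809).

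Complex IV passes electrons to oxygen, and mt-Co1, mt-Co2 and mt-Co3 form its core. mt-Co1 measured 3421 and 3548 CPM in WT and 3481, 2878 and 5196 CPM in dKO (0.14, 95% interval -0.47 to 0.75, edgeR adjusted p 0.924). mt-Co2 measured 1225 and 1232 CPM in WT and 1209, 917 and 1676 CPM in dKO (0.05, edgeR adjusted p 0.982). mt-Co3 measured 2518 and 2531 CPM in WT and 2650.2, 1607 and 2778 CPM in dKO (-0.11, edgeR adjusted p 0.947). For all 3 genes the WT libraries lay close together and inside the range of the dKO libraries, with dKO library 2 lowest and dKO library 3 highest. Leaving out dKO library 3 turned the fitted difference of mt-Co1 to -0.13 and of mt-Co2 to -0.21, and leaving out dKO library 2 turned that of mt-Co3 to 0.11.

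The ribosomal RNAs behaved alike in this respect. mt-Rnr1 measured 149 and 146 CPM in WT and 137, 65.6 and 209 CPM in dKO (-0.10, 95% interval -1.07 to 0.87, edgeR adjusted p 0.973). mt-Rnr2 measured 476 and 450.1 CPM in WT and 477, 274 and 624 CPM in dKO (-0.02, 95% interval -0.75 to 0.72, edgeR adjusted p 0.996). In both genes dKO library 2 was lowest and dKO library 3 highest, and without dKO library 2 the fitted differences were 0.23 and 0.25.

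ATP synthase has mt-Atp8 and mt-Atp6, the overlapping pair shown above, as mitochondrial subunits. mt-Atp8 measured 264 and 226 CPM in WT and 180, 169 and 390.0 CPM in dKO (0.01, 95% interval -0.84 to 0.86, edgeR adjusted p 0.999). mt-Atp6 was counted 8519 and 1934 times in WT and 911, 484 and 1786 times in dKO, or 324 and 77.5 CPM against 33.6, 29.2 and 66.2 CPM. WT library 1 stood far above all others, and WT library 2 lay only just above dKO library 3. The fitted log2 fold change was -2.22 (SE 0.58, 95% interval -3.57 to -0.87), with an unadjusted p of 0.00545 and an adjusted p of 0.430 by edgeR and an adjusted p of 0.0119 by DESeq2. Without WT library 1 the edgeR estimate was -0.86, and without WT library 2 it was -2.92.

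The deposited tables also hold a nuclear row, Gm10925, whose reference transcript of 678 bases is identical to the first 678 of the 681 bases of mt-Atp6. It was matched by symbol, its identifier in the files differs from that in the reference, and the gene model used for counting may therefore differ. Gm10925 was counted 57529 and 48248 times in WT and 43404, 22898 and 79707 times in dKO, far more than mt-Atp6 in every library. mt-Atp6 held 12.9% and 3.85% of the summed counts of both rows in WT and 2.06%, 2.07% and 2.19% in dKO. Summed over both rows the levels were 2509.7 and 2010.4 CPM in WT and 1634, 1413 and 3020 CPM in dKO, with the groups overlapping. The fitted log2 fold change of this sum was -0.16 with an edgeR adjusted p of 0.936, so the difference seen for mt-Atp6 alone was not seen for the sum. TPM of mt-Atp6 was 1.40 and 0.95 in WT and 1.15, 1.85 and 1.503 in dKO, where Gm10925 was listed at 2770 to 5354 TPM. On log2(TPM + 1) the difference of mt-Atp6 had the other sign, 0.20. Whether reads were divided between identical sequences differently in WT library 1 was not tested.

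Counts and TPM of a gene are linked by its length, which gives a check on each row. Scaled on mt-Cytb, the length that counts and TPM imply lay within 10% of the annotated length in all libraries for 10 of the 16 rows with counts, mt-Cytb itself included. mt-Nd4 departed most in level, since its counts imply 900.2 to 1615 TPM and its listed TPM was 1.65 to 6.63. mt-Atp6 departed in the same direction, with 81.8 to 824 TPM implied and 0.95 to 1.85 listed. Their overlapping partners departed the other way. mt-Atp8 was listed at 2709 to 5376 TPM where its counts imply 1578 to 3268, and mt-Nd4l at 19.6 to 48.9 TPM where its counts imply 2.33 to 7.32. mt-Nd6 had an implied length of 0.81 to 0.84 times the annotated one, and mt-Tp one of 2.35 to 2.97 times. A shared nuclear copy exists for mt-Nd4l as well, since 294 of its 297 bases equal those of Gm10222, but that row held only 4 to 22 counts per library. Gm10925 and Gm10222 were the only nuclear rows compared, and nuclear copies of the other mitochondrial genes were not searched for. For mt-Nd4, mt-Atp6, mt-Atp8 and mt-Nd4l a level is therefore not one value but depends on the table read.

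Shares within the mitochondrial mRNAs do not depend on library scaling, and here the groups did not overlap for 7 genes, against 2 in CPM. Of the 13 shares of mitochondrial mRNA counts, 4 were higher in all dKO than in both WT libraries, where 14.9% of all genes were when divided by the same mitochondrial mRNA total. Another 3 were lower in all dKO libraries, where 6.57% of all genes were. Shares of one total are tied together, so a lower mt-Cytb share alone raises the others.

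mt-Cytb made up 46.4% and 43.2% of mitochondrial mRNA counts in WT and 36.3%, 41.3% and 42.9% in dKO. The highest dKO share lay just under the lowest WT share, so the separation was narrow. mt-Co1 made up 16.5% and 18.5% in WT and 20.3%, 21.5% and 21.8% in dKO, or 21.2% ± 0.814 (SD, n = 3) against 17.5% ± 1.37 (SD, n = 2). mt-Co2 made up 5.91% and 6.41% in WT and 7.05%, 6.84% and 7.05% in dKO. Both complex IV genes were thus higher in each dKO library, while mt-Co3 overlapped at 12.2% and 13.2% in WT and 15.4%, 12.0% and 11.7% in dKO. All of complex IV summed to 34.6% and 38.0% in WT and 42.8%, 40.3% and 40.6% in dKO. The complex I genes did not share one direction. mt-Nd1 made up 8.89% and 8.93% in WT and 8.25%, 7.499% and 5.97% in dKO, lower in each dKO library. mt-Nd2 made up 1.38% and 1.21% in WT against 1.84%, 1.79% and 1.61% in dKO, higher in each. mt-Nd5 made up 1.24% and 1.69% in WT against 1.998%, 2.04% and 1.73% in dKO, also higher in each though only just in dKO library 3. Summed, complex I overlapped at 16.2% and 17.2% in WT and 19.6%, 16.98% and 14.6% in dKO. mt-Atp6 made up 1.56% and 0.403% in WT and 0.196%, 0.218% and 0.278% in dKO, subject to the division of counts with Gm10925.

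An exact two-sided permutation test of each of the 13 shares, with 10 arrangements of 2 against 3 libraries and a smallest possible p of 0.1, gave 0.1 for mt-Atp6, mt-Co1, mt-Co2 and mt-Nd2 and 0.2 for mt-Cytb, mt-Nd1, mt-Nd4l and mt-Nd5. With these group sizes no share can reach 0.05. On the TPM scale mt-Cytb, mt-Nd1, mt-Co1, mt-Co2, mt-Nd2 and mt-Nd5 lay on the same sides without overlap, mt-Atp6 overlapped, and mt-Nd4 was higher in each dKO library with a ratio of 2.37, on the low TPM values described above. The dKO to WT ratio of the mt-Co1 share stayed between 1.15 and 1.28 when each library was left out in turn or TPM was used, that of mt-Nd1 between 0.756 and 0.884, and that of mt-Cytb between 0.865 and 0.939.

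Ratios between single mRNAs, chosen after their values were seen, show the same data without a shared total. There were 35.6 and 42.8 mt-Co1 counts per 100 mt-Cytb counts in WT and 55.8, 52.0 and 51.0 in dKO. Per 100 mt-Co1 counts there were 53.8 and 48.4 mt-Nd1 counts in WT and 40.7, 34.9 and 27.3 in dKO. Neither ratio overlapped between the groups. Both are built from genes whose shares had already separated, so they are the same result read again. Of the other ratios read, mt-Nd1 to mt-Nd4 and mt-Atp8 to mt-Cytb did not overlap, and mt-Rnr1 to mt-Rnr2 did. The share of all gene pairs without overlap was not computed.

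**Figure D4:**
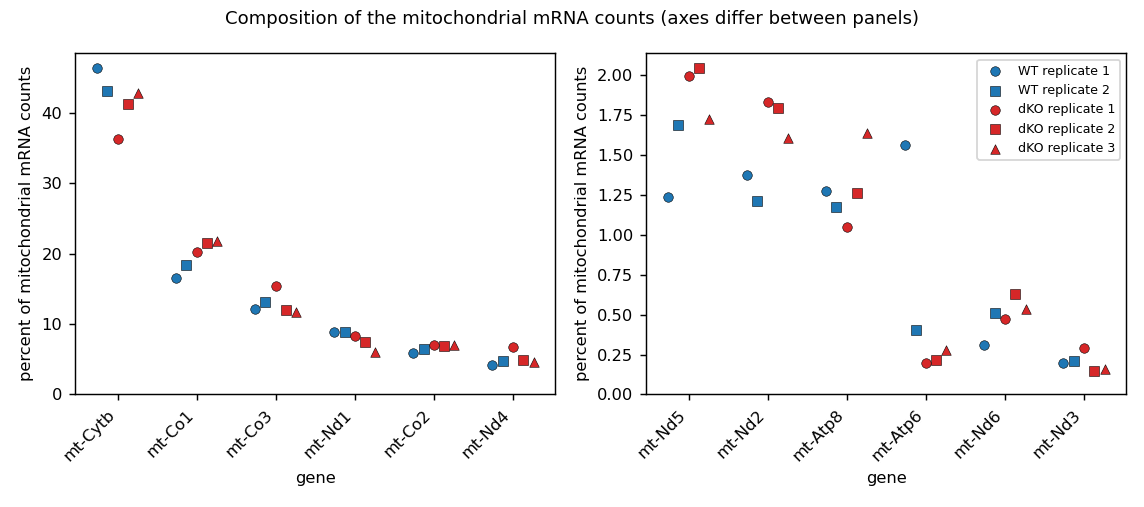
Share of mitochondrial mRNA counts, in percent, for the mRNAs other than mt-Nd4l, 1 point per library, with different axes in each panel. All 3 dKO points lie above both WT points for mt-Co1, mt-Co2, mt-Nd2 and mt-Nd5 and below both for mt-Cytb, mt-Nd1 and mt-Atp6.

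Transfer RNAs bring amino acids to the mitochondrial ribosome, and most were not seen in the count table. For 21 of the 22 genes the count was 0 in all 5 libraries, where 3 counts would be 0.107 to 0.187 per 1000000 library counts before TMM scaling. For 20 of these 21 the TPM table lists a value above 0 in at least 1 library, so the zeros of the count table set no upper limit on their level. Only mt-Tp, the proline tRNA, carried counts, 136 and 113 in WT and 91, 64 and 268 in dKO. Its 67 bases are shown as the reference transcript gives them, since it is the sequence behind every tRNA count in these data, with no base marked.
mt-Tp: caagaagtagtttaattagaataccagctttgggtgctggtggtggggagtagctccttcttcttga
In CPM mt-Tp measured 5.17 and 4.53 in WT and 3.35, 3.87 and 9.93 in dKO, with dKO library 3 highest and the other dKO libraries lowest (0.24, 95% interval -1.85 to 2.33, edgeR adjusted p 0.970).

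The TPM table gave another view of the same tRNA rows. TPM was above 0 in all libraries for 19 of the 22 tRNAs, 0 in some for mt-Tr and mt-Ts2 (both at 0 in dKO library 2), and 0 throughout for mt-Ts1. Their summed TPM was 613 and 549 in WT and 670.4, 481 and 703 in dKO, with WT inside the dKO range. The median over tRNAs of the mean TPM was 11.8, and 11 of the 22 had a mean above 10. Over the 14 tRNAs on the strand with most mRNAs the median was 3.77, and over the 8 on the other strand 33.9. Annotated lengths of these genes run from 59 to 75 bases. The highest tRNAs by TPM were chosen by their values. mt-Tm, the methionine tRNA, was listed at 150.1 and 82.6 TPM in WT and 146, 108 and 117 TPM in dKO. mt-Te, the glutamate tRNA beside mt-Cytb on the other strand, was listed at 82.6 and 76.5 TPM in WT and 100.01, 102 and 136 TPM in dKO, higher in each dKO library. mt-Tt, the threonine tRNA on the other side of mt-Cytb, was listed at 93.7 and 83.2 TPM in WT and 78.9, 79.6 and 94.0 TPM in dKO, with overlap. Groups did not overlap for 3 tRNAs with higher TPM in dKO (mt-Te, mt-Tq, mt-Tg), where 15.1% of all rows with a TPM above 0 did so, and for 2 with lower TPM (mt-Tf, mt-Tl1), where 7.85% did. Since 21 of these rows had no counts, their TPM could not be checked against reads, and without strand it cannot be told apart from RNA of the opposite strand or of uncut precursors.

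Mitochondrial mRNA levels depend on nuclear genes, and 3 lists of such genes were read in the same fit. The transcription and RNA processing list holds the polymerase, its factors, and enzymes that cut, modify, tail and degrade mitochondrial RNA. edgeR called 0 of its 38 genes. At an unadjusted p under 0.05, 7 were lower (5.19% over all genes) and 0 higher (4.94% over all genes). The median log2 fold change was -0.34 beside 0.04 over all genes, and 28 of the 38 were negative. CPM was lower without overlap in 13 (15.6% over all genes) and higher in 0 (13.7% over all genes). The gene listed as 1110002N22Rik (Tefm, the elongation factor of the mitochondrial polymerase) measured 55.1 and 49.8 CPM in WT and 29.6, 16.7 and 23.5 CPM in dKO (-1.17, edgeR adjusted p 0.436). Pnpt1, the polynucleotide phosphorylase of the RNA-degrading complex, measured 90.0 and 138 CPM in WT and 74.6, 49.3 and 66.8 CPM in dKO (-0.84, edgeR adjusted p 0.441). Fastkd2, which acts on mitochondrial ribosomal RNA, measured 91.3 and 118 CPM in WT and 54.2, 64.6 and 71.6 CPM in dKO (-0.72, edgeR adjusted p 0.441). Rexo2, which degrades short RNAs, had a log2 fold change of -0.65 (edgeR adjusted p 0.436). All 4 of these genes, the ones with the smallest p of the list, were lower in each dKO library. Of the core factors, named after their values were seen, Tfam measured 71.3 and 84.0 CPM in WT and 81.4, 70.5 and 58.9 CPM in dKO (-0.14, edgeR adjusted p 0.923). Polrmt, the polymerase, had 12.9 and 19.8 CPM in WT and 26.7, 12.8 and 19.9 CPM in dKO (0.28, edgeR adjusted p 0.923), with both groups overlapping in either gene.

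Another list holds genes for replication and upkeep of mitochondrial DNA. edgeR called 0 of 20 genes, and 0 had an unadjusted p under 0.05, where 5.19% of all genes were lower and 4.94% higher. The median was 0.07, with 11 positive and 9 negative, and it turned to -0.10 with limma-voom and to -0.0030 without WT library 2. CPM was lower without overlap in 4 genes, a share near the 15.6% of all genes, and higher in 0 (13.7% of all genes). The smallest p belonged to Ppargc1b, a coactivator of genes for mitochondria, at 3.57 and 1.96 CPM in WT and 6.38, 17.8 and 2.89 CPM in dKO, with overlap (1.70, edgeR adjusted p 0.619). Slc25a4, the ADP/ATP carrier (-0.33), Ssbp1, which binds single-stranded mitochondrial DNA (-0.45), and the gene listed as 8430406I07Rik (Mgme1, an exonuclease for mitochondrial DNA, -0.36) were lower in each dKO library, with edgeR adjusted p from 0.642 to 0.692.

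A last list holds a selection of nuclear subunits of the respiratory chain and ATP synthase, not all of them, with the electron carrier Cycs. edgeR called 0 of 45 genes and DESeq2 called 2 lower, where it called 0.729% of all genes lower. At an unadjusted p under 0.05 by edgeR 22 were lower (5.19% over all genes) and 0 higher (4.94% over all genes). Of the 45 estimates 44 were negative, with a median of -0.48, and CPM was lower without overlap in 33 (15.6% over all genes). Cycs measured 429 and 915 CPM in WT and 304, 266 and 339 CPM in dKO (-1.15, edgeR adjusted p 0.430). Atp5g1, a ring subunit of ATP synthase, measured 487 and 818 CPM in WT and 343, 297 and 377 CPM in dKO (-0.95, edgeR adjusted p 0.430). Ndufv2 of complex I (-0.73) and Cox5b of complex IV (-0.68) were also lower in each dKO library, with edgeR adjusted p of 0.434 and 0.436. WT library 2, which had the most granulocyte marker RNA, was the highest for each of these 4 genes and for the sum of the list, 15119 and 20206 CPM in WT against 12288, 12428 and 13558 CPM in dKO. All 12 granulocyte markers had negative estimates, with a median of -1.21 and 0 called by edgeR. Of these, 3 were lower at an unadjusted p under 0.05 (5.19% over all genes). CPM was lower without overlap in 2 of the 12 (15.6% over all genes). Their sum in WT library 1, 6689 CPM, lay under that of every dKO library (11401 to 15997 CPM). Within that list Ltf was low throughout, at 1.75 and 3.16 CPM in WT, 0 in dKO libraries 1 and 2 and 0.185 CPM in dKO library 3. The stem cell marker list, highest in the dKO libraries, had a median of 0.70 and 0 called, with 4 of 12 higher at an unadjusted p under 0.05 (4.94% over all genes) and 5 higher without overlap (13.7% over all genes). The part of these cell populations in the nuclear result was not tested. Without WT library 2 the median of the nuclear subunits was -0.33, without WT library 1 it was -0.66, and on both log2 TPM scales it was -0.28.

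Summed levels of markers of other cell types were as follows. Erythroid markers summed to 1205 and 921 CPM in WT and 1635, 1694 and 2203 CPM in dKO, higher in each dKO library. Most of that sum was Car2, at 1086 and 772 CPM in WT and 1447, 1495 and 1982 CPM in dKO. Of the 11 tested genes 7 had positive and 4 negative estimates. Their median log2 fold change was 0.47, and 3 were higher without overlap. Car1, a carbonic anhydrase of erythroid progenitors named after its values were seen, measured 6.57 and 6.45 CPM in WT and 69.9, 58.2 and 62.7 CPM in dKO (3.29, edgeR adjusted p 0.178). The macrophage and dendritic list summed to 974.95 and 812 CPM in WT and 1154, 1297 and 1657 CPM in dKO, also higher in each, with a median of 0.65 over 9 genes and 5 higher without overlap. B cell markers summed to 174 and 116 CPM in WT and 137, 308 and 383 CPM in dKO, so that the sums overlapped, with a median of 1.65 over 8 tested genes and 4 higher without overlap. T and NK markers summed to 762 and 1910 CPM in WT and 599, 757 and 749 CPM in dKO, most of it Nkg7, and Cd3e was at 0 in all libraries. Their median was 1.17 over 6 tested genes, with 1 gene higher and 1 lower without overlap. Over all genes 13.7% were higher and 15.6% lower without overlap, and edgeR called 0 genes of these 4 lists. At an unadjusted p under 0.05 by edgeR, 3 erythroid, 3 macrophage and dendritic and 4 B cell markers were higher (4.94% over all genes). By the same measure 1 T and NK marker was lower (5.19% over all genes). The part of these cell types in the mitochondrial values was not tested.

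Set side by side, the share of library counts held by the listed nuclear subunits was 1.52% and 1.80% in WT. In dKO it was 1.32%, 1.28% and 1.36%, lower in each dKO library. The mitochondrial mRNA share overlapped between the groups. Per 100 counts of the listed nuclear subunits there were 137 and 95.2 mitochondrial mRNA counts in WT and 140, 108 and 175 in dKO. The list is partial, so the height of this ratio is not that of all mitochondrial against all nuclear subunits. That ratio also overlapped, because WT library 1 lay near dKO library 1 and above dKO library 2.

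**Figure D5:**
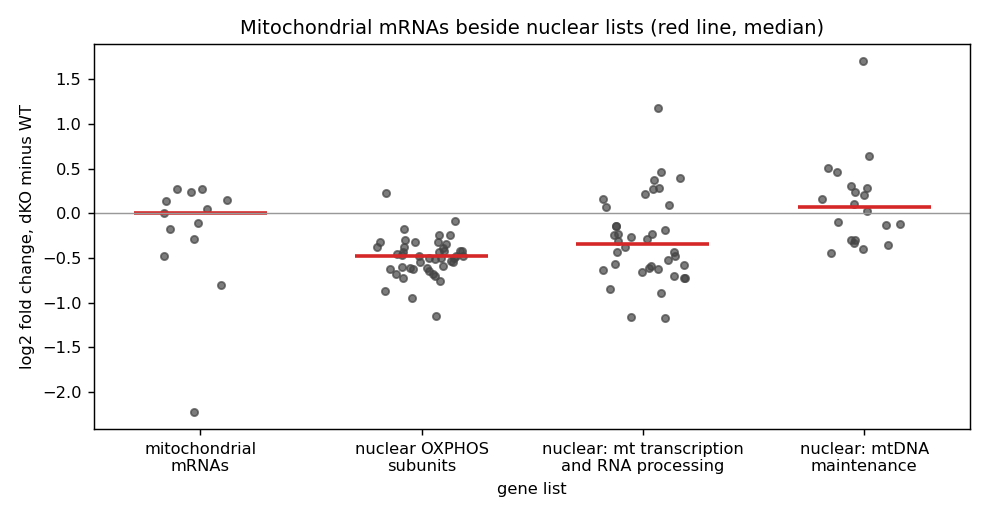
Fitted log2 fold change, dKO minus WT, for each tested gene of 4 lists, with the median of each list as a red line. Mitochondrial mRNAs lie around 0 (median 0.01), and the listed nuclear subunits lie almost all under 0 (median -0.48).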

How the data were processed

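Smart-seq2 libraries of 5 samples, labelled WT (2) or dKO (3), were analysed from the deposited raw counts per gene (whole numbers) and from TPM, which the authors normalized by length and library and deposited in separate tables. Per the submitters' processing notes, the build was mm9 and the tools were TopHat2 2.1.1, HTSeq, RSEM 1.2.31, DESeq2, Trimmomatic and FastQC 0.11.5. Which tool made which table, the strand setting and the treatment of reads that match several genes are not given in the sources used here. Of 33924 rows per table, 30 name no gene. They held 0.216% to 0.269% of counts and were left out.

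Tests on counts used edgeR 4.0.16 under R 4.3.3 (TMM scaling, filterByExpr, robust quasi-likelihood fit, all 5 samples, no covariate) with Benjamini-Hochberg adjustment over 13696 genes, a threshold of 0.05 and a biological coefficient of variation of 67.9%. All 13 mRNA, 2 rRNA and 1 of 22 tRNA rows passed the filter. A floor of 3 counts equals 0.107 to 0.187 per 1000000 library counts before TMM scaling, and such floors cover counting error only. The fit was tested on simulated counts. CPM are scaled by TMM, and CPM per kilobase uses GENCODE M21 lengths (GRCm38), matched by identifier for all 37 rows. That reference is of another build, so no coordinates are given. Shares, ratios and ranks are values per library. Alternatives were DESeq2 1.42.0, limma 3.58.1 with voom and quality weights, limma on log2(TPM + 1) and log2(TPM + 0.1), other scalings and filters, a replicate block, and each library left out.

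All mRNA and rRNA rows are named, with tRNA rows among the 6 with the highest summed counts or past the test, and the 4 genes with the smallest p of each nuclear list. The members, lists and tests were chosen with earlier results of these data known. Within groups the libraries differed by 105 to 170 times the sampling noise (chi-square per degree of freedom), so none was deposited in duplicate.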

Additional observations from a re-analysis of the deposited data

How the results depend on the processing

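edgeR called 0 of the tested mitochondrial rows under every scaling, filter and left-out library. These were 16 rows, or 15 with the filter of 5 CPM in 2 libraries, which left out mt-Nd4l. DESeq2 called 1 lower (mt-Atp6, -2.21). Over all genes, calls higher and lower numbered 162 and 92 with DESeq2 and 5 and 3 without a filter. Higher calls numbered 2 with limma on log2(TPM + 1), 2 on log2(TPM + 0.1) and 1 with the replicate block. Leaving out single libraries gave 0 to 2 higher and 0 to 3 lower. No label says that equal replicate numbers pair WT with dKO samples, and deviations of equal numbers correlated at 0.033 and 0.046. With the replicate block, which drops the unpaired dKO library 3 from the comparison, the median of the mitochondrial mRNAs was -0.29, and mt-Co1 (-0.14), mt-Co2 (-0.22), mt-Atp8 (-0.49), mt-Nd4 (-0.020) and mt-Tp (-0.43) turned negative. On log2(TPM + 1) and log2(TPM + 0.1) the transcription and RNA processing list had a median of -0.13 and -0.14, and sign turned for mt-Atp6 (0.20, 0.32), mt-Rnr2 (0.092, 0.092) and mt-Co3 (0.045, 0.045). Limma with voom turned mt-Rnr2 (0.056), mt-Atp8 (-0.074) and mt-Nd3 (0.0074). mt-Rnr2 also turned with upper quartile scaling (0.0039) and a filter of 5 CPM in 2 libraries (0.0074). Over left-out libraries the estimates ran from -0.54 to 0.23 for mt-Rnr1, -0.30 to 0.25 for mt-Rnr2, -0.13 to 0.32 for mt-Co1, -0.21 to 0.24 for mt-Co2, -0.49 to 0.22 for mt-Atp8, -0.24 to 0.11 for mt-Co3, -0.50 to 0.13 for mt-Nd3, -0.0055 to 0.37 for mt-Nd4, -0.0079 to 0.60 for mt-Nd6 and -0.42 to 0.51 for mt-Tp. The cause of these turns was not tested. The median of the mitochondrial mRNAs ran from -0.21 to 0.22 over left-out libraries. The median over all genes shifted to 0.14 on log2(TPM + 1) and to 0.16 without WT library 1. mt-Nd1, mt-Cytb, mt-Nd2, mt-Nd5 and mt-Nd4l kept their sign in every alternative that tested them. The sum of mt-Atp6 and Gm10925 was chosen after seeing the data.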
